A study of Oryza sativa with 6 samples.

Results

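The plasma membrane intrinsic proteins (PIPs) of rice were followed in roots of the cultivars 9311 and HHZ. The genes were chosen by identifier, 3 of the PIP1 and 7 of the PIP2 subfamily, and all 10 were found among the 36844 genes of the deposited count table. The rule for choosing them names identifiers and uses no measured value, although earlier results of these data were known when it was set. Roots came from hydroponic plants kept at 27 °C in the greenhouse, 2 plants to a container of 2 l. At 50 days after germination both cultivars went without NH4NO3 for 2 days and were then given 1 mM NH4NO3 again for 3 h before the roots were frozen. Each cultivar has 3 RNA sequencing libraries, and the labels name no transgene or further treatment. The labels do not say whether the replicates came from separate containers or how many plants were pooled, so p-values measure the spread between these libraries. The study measured nitrogen and water uptake of the same cultivars, and the question here is whether the transcripts of the water channels differed between their roots.

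PIPs are aquaporins, channel proteins that sit in the plasma membrane as tetramers and let water pass into and out of cells. PIP2 proteins are usually strong water channels when tested alone. PIP1 proteins often need a PIP2 partner to reach the membrane, as was shown in maize. In roots, PIPs carry much of the water that crosses living cells on its way to the xylem, and their transcripts are known to respond to light, transpiration and nutrient supply.

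The libraries held between 16622441 and 22646162 counts, and the PIP genes took 0.294% to 0.483% of them. Expression is given in CPM, a gene's counts per 1000000 counts of its library, scaled with edgeR's TMM factors (trimmed mean of M-values), which correct for differences in composition between libraries. HHZ replicate 3 stood apart from its group. Over all genes tested, its root mean square distance from the other HHZ libraries was 0.843 and 0.928 on the log2 scale, against 0.474 between HHZ replicates 1 and 2 and 0.516 to 0.611 among the 9311 libraries. Reads of both cultivars were aligned to the genome of the japonica cultivar Nipponbare. A gene that is diverged or missing in a cultivar can therefore be listed with few or no counts. Reads that fit several near-identical genes equally well are not counted by the counting option used, so values of close PIP copies are uncertain. In whole roots, fewer cells of a type and less RNA per cell cannot be told apart. The root label was not checked against tissue markers, because no table used here pairs marker names with the identifiers of the count table.

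PIP2;4 was the PIP gene that passed the edgeR test between the cultivars. Its expression was 3.07-fold higher in 9311, and the 9311 and HHZ libraries did not overlap. PIP2;1 also lay higher in every 9311 library than in any HHZ library, by a smaller fold. Its adjusted p was above 0.05 in edgeR and under 0.05 with DESeq2 and limma-voom. PIP1;1 lay lower in every 9311 library, with an adjusted p above 0.05 in edgeR. Expression of the other 5 detected genes overlapped between the cultivars, and the rows listed as PIP2;5 and PIP2;7 had 0 counts in every library.

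**Figure D1:**
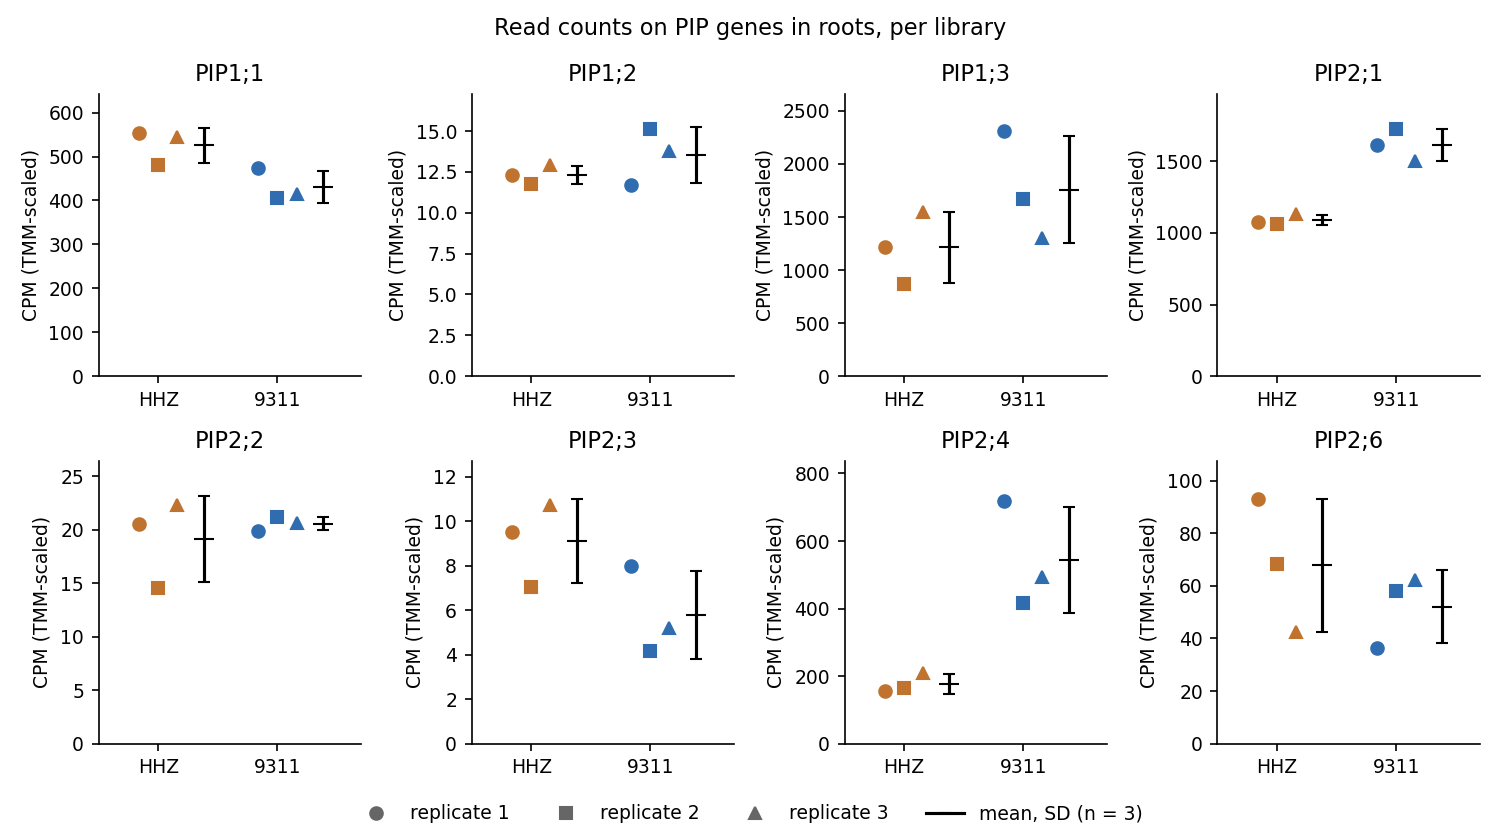
Expression of the 8 PIP genes with counts, in TMM-scaled CPM on axes that start at 0, for each HHZ library (orange) and each 9311 library (blue), with the mean and SD of 3 libraries beside them. The HHZ and 9311 points are separate in 3 of the 8 panels and overlap in the other 5.

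PIP2;4 (Os07g0448100, chromosome 7) is known in rice as an aquaporin expressed mainly in roots, and in assays in frog oocytes it also let arsenite pass. It received 3587, 3836 and 4557 counts in HHZ replicates 1, 2 and 3, and 14934, 7929 and 8418 counts in 9311 replicates 1, 2 and 3. In CPM, HHZ had 157, 163 and 210, and 9311 had 719, 417 and 492. The lowest 9311 library was thus well above the highest HHZ library, and 9311 replicate 1 was the highest of all. The mean was 543 ± 157 CPM in 9311 and 177 ± 28.9 CPM in HHZ (SD, n = 3 each). This is 3.07-fold higher in 9311 (95% interval 2.06 to 4.57), a log2 fold change of 1.62 with a standard error of 0.24 (adjusted p = 0.0113 in the quasi-likelihood test of edgeR, adjusted by Benjamini-Hochberg over all genes tested). The call did not hold in every fit that left out a library. Without HHZ replicate 1 the adjusted p in edgeR was 0.0513 and without HHZ replicate 2 it was 0.0628, while the log2 fold change stayed at 1.54 and 1.57. Without HHZ replicate 3, the library that stood apart, the log2 fold change was 1.75 (adjusted p = 0.00919 in edgeR). Without 9311 replicate 1 it was 1.35 (adjusted p = 0.0233 in edgeR).

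PIP2;1 (Os07g0448800, chromosome 7) is a water channel of rice roots, and rice plants with less of it were shown to have a lower root hydraulic conductivity. Its CPM were 1078, 1066 and 1129 in HHZ and 1614, 1729 and 1500 in 9311. The replicates lay close together, with a coefficient of variation of 3.11% in HHZ and 7.09% in 9311, and the cultivars did not overlap. The mean was 1614 ± 114 CPM in 9311 and 1091 ± 33.9 CPM in HHZ (SD, n = 3 each), a log2 fold change of 0.57 with a standard error of 0.14. Its 95% interval, 0.23 to 0.90, lay above 0, but over all genes tested the adjusted p was 0.0708 in edgeR. The paper called differing genes with DESeq2 at an adjusted p under 0.05. Here, with DESeq2 the adjusted p was 3.18e-05 and with limma-voom 0.0359, at log2 fold changes of 0.57 and 0.56. It was not under 0.05 in any of the other 13 alternatives, which ranged from 0.0555 to 0.244 in edgeR.

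PIP2;1 and PIP2;4 together made up the difference between the cultivars in reads on the PIP2 subfamily. The summed CPM of the PIP2 genes was 1357, 1319 and 1415 in HHZ and 2396, 2229 and 2081 in 9311. Every 9311 library was thus above every HHZ library. The means were 2235 ± 158 CPM in 9311 and 1364 ± 48.3 CPM in HHZ (SD, n = 3 each), a ratio of 1.64. The exact two-sided permutation test over the libraries gave p = 0.1, the smallest that 3 libraries against 3 can give. PIP2;1 and PIP2;4 hold most of the PIP2 reads, and each already lay higher in every 9311 library. The separation of the sum and its p follow from these genes and add no support beyond them. Of the difference of 872 CPM, 60.0% lay on PIP2;1 and 42.0% on PIP2;4, and the remaining PIP2 genes together lay slightly the other way. A sum of CPM over genes weighs each by its reads, and so by its length, because no coding lengths were used.

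**Figure D2:**
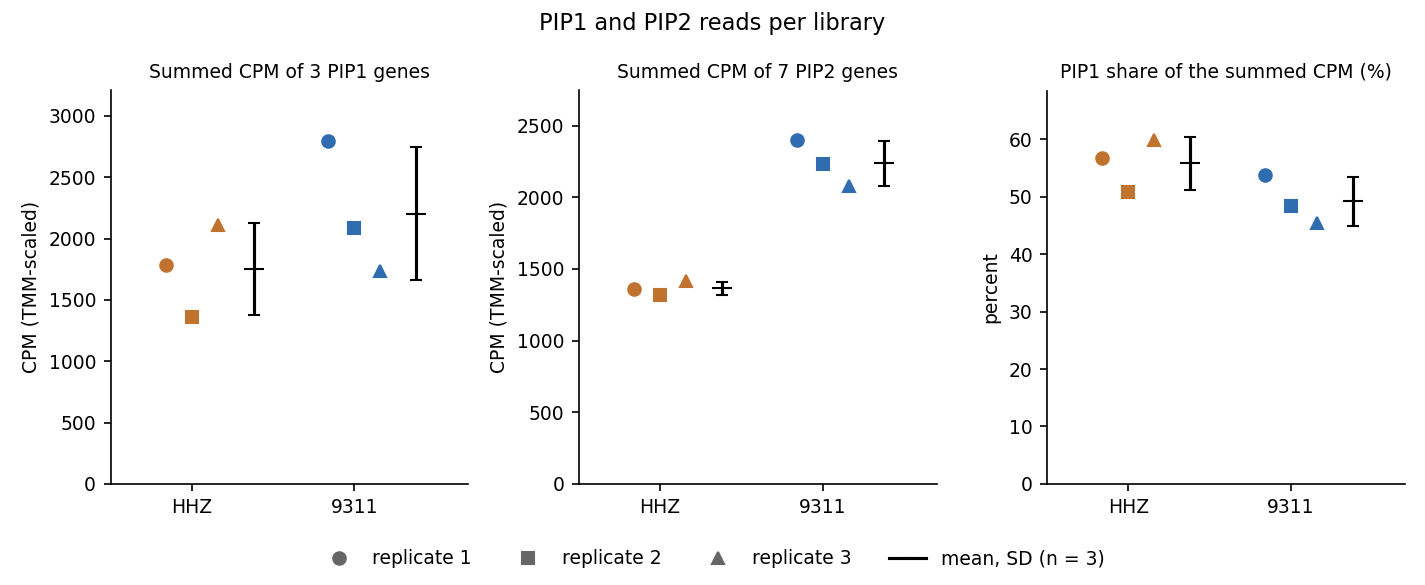
Summed TMM-scaled CPM of the PIP1 genes (left) and of the PIP2 genes (middle), and the PIP1 share of both sums in percent (right), for each library of HHZ and 9311 with the mean and SD of 3 libraries. The PIP2 sums were 1319 to 1415 CPM in HHZ and 2081 to 2396 CPM in 9311, while the PIP1 sums and shares overlapped.

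The other PIP2 genes had fewer reads. PIP2;6 (Os04g0233400, chromosome 4), which also let arsenite pass in oocytes, had 92.9, 68.1 and 42.3 CPM in HHZ and 36.2, 57.9 and 62.1 CPM in 9311. Its replicates were the most spread of the PIP genes in HHZ, with a coefficient of variation of 37.3%, and the cultivars overlapped. The log2 fold change was -0.38 with a 95% interval of -1.16 to 0.39 (adjusted p = 0.562 in edgeR). Without HHZ replicate 1 it was -0.09 and without HHZ replicate 3 it was -0.64 (adjusted p = 0.915 and 0.155 in edgeR). It also moved with the 9311 libraries, to -0.19 without replicate 1 (adjusted p = 0.834 in edgeR), so the estimate rests on which libraries of either cultivar are kept. In both cultivars the library with the highest CPM for PIP2;4 had the lowest for PIP2;6. This was not tested and rests on few libraries, and the HHZ library is replicate 3, which stood apart over all genes.

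PIP2;2 (Os02g0629200, chromosome 2), a water channel of the same subfamily, was nearly level in both cultivars, with 20.6, 14.6 and 22.3 CPM in HHZ and 19.9, 21.2 and 20.7 CPM in 9311. The log2 fold change of 0.10 had a 95% interval of -0.32 to 0.53, or 0.80 to 1.44 times the HHZ level (adjusted p = 0.784 in edgeR). Its sign was not stable: it was -0.0077 with library totals as the only scaling and -0.058 without HHZ replicate 2. PIP2;3 (Os04g0521100, chromosome 4) had 218, 165 and 233 counts in HHZ and 166, 79 and 89 counts in 9311. Only the highest 9311 library, replicate 1 with 7.99 CPM, overlapped with HHZ, whose lowest library had 7.03 CPM. The log2 fold change was -0.65 with a 95% interval of -1.36 to 0.06 (adjusted p = 0.272 in edgeR).

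Among the PIP1 genes, PIP1;3 (Os02g0823100, chromosome 2), known in rice as RWC3, a water channel studied in drought avoidance of upland rice, had most of the subfamily's reads. Its CPM were 1217, 872 and 1550 in HHZ and 2307, 1667 and 1303 in 9311. HHZ replicate 3 lay above 9311 replicate 3, so the cultivars overlapped. The mean was 1759 ± 508 CPM in 9311 and 1213 ± 339 CPM in HHZ (SD, n = 3 each), and the log2 fold change of 0.54 had a 95% interval of -0.17 to 1.25 (adjusted p = 0.361 in edgeR). The fold is of the size of that of PIP2;1, but the replicates varied by 28.9% in 9311 and 27.9% in HHZ (coefficient of variation). Without HHZ replicate 3 the log2 fold change was 0.74 and without 9311 replicate 1 it was 0.28 (adjusted p = 0.159 and 0.695 in edgeR).

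PIP1;1 (Os02g0666200, chromosome 2), known as RWC1, was described early as a water channel protein of rice. It had 553, 480 and 546 CPM in HHZ and 473, 405 and 415 CPM in 9311. The highest 9311 library lay just under the lowest HHZ library. The mean was 431 ± 36.7 CPM in 9311 and 526 ± 40.0 CPM in HHZ (SD, n = 3 each), and the log2 fold change of -0.29 had a 95% interval of -0.60 to 0.02 (adjusted p = 0.269 in edgeR, 0.133 to 0.518 over all alternatives). PIP1;2 (Os04g0559700, chromosome 4) had between 235 and 288 counts in every library. Its CPM were 12.3, 11.8 and 12.9 in HHZ and 11.7, 15.1 and 13.7 in 9311, with overlap, and the log2 fold change was 0.13 (95% interval -0.21 to 0.48, adjusted p = 0.652 in edgeR).

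The summed CPM of the PIP1 genes overlapped between the cultivars, with 1782, 1364 and 2108 CPM in HHZ and 2792, 2088 and 1731 CPM in 9311 (exact two-sided permutation test, p = 0.5). The difference of the means, 453 CPM, fell to 159 CPM without 9311 replicate 1. PIP1 genes took 56.8%, 50.8% and 59.8% of the summed CPM of all PIP genes in HHZ, and 53.8%, 48.4% and 45.4% in 9311. The means of this share were 55.8% ± 4.57 and 49.2% ± 4.26 (SD, n = 3 each), and the libraries overlapped (exact two-sided permutation test, p = 0.2).

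**Figure D3:**
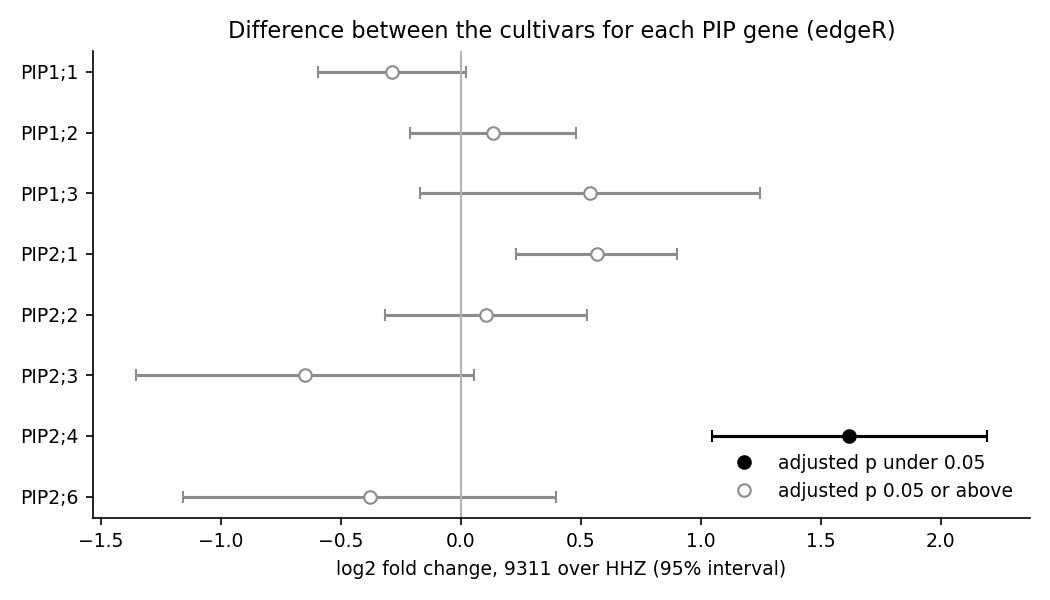
Log2 fold change of each PIP gene between the cultivars (9311 over HHZ) from edgeR, with its 95% interval, on a linear axis. The filled point at 1.62 has an adjusted p under 0.05, and its interval and that of PIP2;1, 0.23 to 0.90, are those that do not include 0.

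Of the 8 PIP genes tested, 1 had an adjusted p under 0.05 in edgeR, higher in 9311. Over all 22554 genes tested the share was 6.51%, with 3.25% higher in 9311 and 3.26% higher in HHZ. For 3 of the 8 PIP genes the 9311 and HHZ libraries did not overlap, 2 of them higher in 9311 and 1 higher in HHZ. This held for 27.2% of all genes tested, 13.0% higher in 9311 and 14.3% higher in HHZ. Both counts are near these shares and so say nothing about the PIP genes as a group. Unadjusted p-values under 0.05 were found for 2 of the 8 PIP genes and for 21.0% of all genes. The median log2 fold change was 0.12 over the PIP genes and -0.01 over all genes tested, with 5 PIP genes above 0 and 3 below. Its median size was 0.46 over the PIP genes and 0.26 over all genes.

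HHZ replicate 3, the library that stood apart over all genes, was the highest HHZ library for 6 of the 8 PIP genes and the lowest for PIP2;6. Among the 6 are both genes whose levels lay higher in every 9311 library, so that for these it was the HHZ library nearest to 9311. Without it their log2 fold changes were 1.75 for PIP2;4 and 0.58 for PIP2;1, slightly above those with all libraries.

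PIP2;4 and PIP2;1 lie near each other on chromosome 7, and the rows between them were read as well. The row directly after PIP2;4, Os07g0448200, is the one listed as PIP2;5, and it had 0 counts in all 6 libraries. A count of 0 allows up to 3 counts, or 0.128 to 0.175 CPM at these depths, of reads counted on the reference. This gene is known in rice as an aquaporin expressed mainly in roots, but the name of the row is uncertain. In the RefSeq gene table of the assembly ASM3414082v1, the next gene after PIP2;4 is a pseudogene, followed by PIP2;5 and PIP2;1, while the deposited counts have 4 rows between the same genes, and no table used here pairs either set of names with the other. Of these 4 rows, Os07g0448300 also had 0 counts in every library, and Os07g0448400 had 5, 9 and 3 counts in HHZ and 10, 7 and 5 in 9311. On each of these 3 rows the counts were at or close to 0 in both cultivars. PIP2;7 (Os09g0541000, chromosome 9), a PIP2 gene that was linked to chilling tolerance in rice, also had 0 counts in every library. Both rows are among 7710 genes with no counts in any library.

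**Figure D4:**
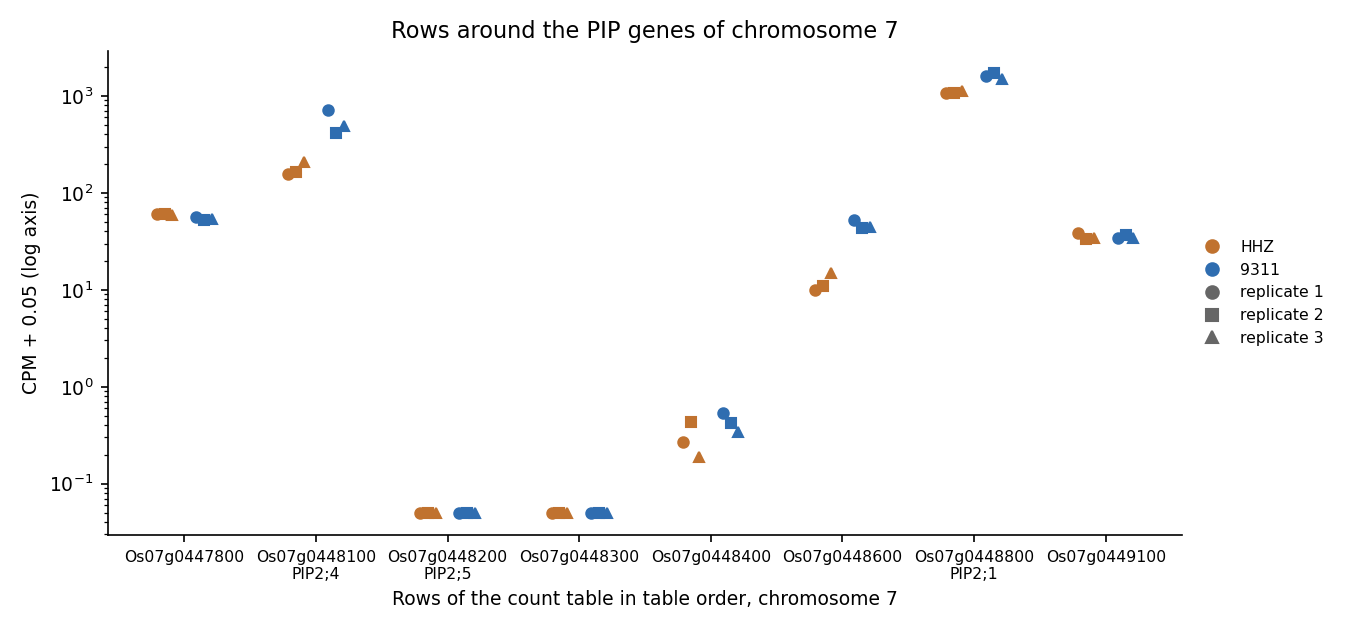
Expression on the rows of the count table from the row before PIP2;4 to the row after PIP2;1, in table order, as CPM plus 0.05 on a log axis, for each HHZ library (orange) and each 9311 library (blue). Higher levels in every 9311 library are seen on both named rows with counts and on Os07g0448600, and not on the outer rows, and points at the bottom are rows with 0 counts.

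The remaining row between them, Os07g0448600, was singled out after its values were seen, and no table used here gives it a name. It had 229, 255 and 319 counts in HHZ and 1088, 824 and 761 in 9311, or 10.0, 10.9 and 14.7 CPM against 52.4, 43.3 and 44.5 CPM. The cultivars were far apart, with a log2 fold change of 1.98 and a standard error of 0.18 (adjusted p = 0.00164 in edgeR). The call held in all 15 alternatives, with a log2 fold change between 1.87 and 2.15. The outer rows, Os07g0447800 and Os07g0449100, had log2 fold changes of -0.15 and -0.02 (adjusted p = 0.408 and 0.935 in edgeR). On Os07g0447800 every HHZ library, at 58.3 to 61.0 CPM, lay above every 9311 library, at 52.4 to 56.6 CPM. Such a separation was found for 14.3% of all genes tested. The strand setting of the counts is not given in the sources used here, so reads from overlapping or antisense transcripts at these rows cannot be told apart.

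A list of 23 further identifiers, drawn up as other genes of the aquaporin family, was read for comparison. No table used here pairs these identifiers with names, so they are given by identifier. Of the 23, 17 had enough counts to be tested and 3 had 0 counts in every library. None of the 17 had an adjusted p under 0.05 in edgeR (6.51% of all genes tested), while 2 had an unadjusted p under 0.05 (21.0% of all genes tested). DESeq2 called 1 of the list, against 11.2% of all genes tested with DESeq2. This was Os05g0231700 (log2 fold change -0.98, adjusted p = 0.0297 in DESeq2 and 0.119 in edgeR), and naming it was not planned. For 5 of the 17 the 9311 and HHZ libraries did not overlap, 2 higher in 9311 and 3 higher in HHZ, which is near the 27.2% of all genes tested. The median log2 fold change of the tested genes was -0.08, with 7 above 0 and 10 below. The 3 with the highest mean CPM were Os02g0745100, with 2668 ± 204 CPM in HHZ and 2076 ± 421 CPM in 9311, Os06g0336200, with 309 ± 97.4 and 262 ± 185 CPM, and Os01g0975900, with 117 ± 20.1 and 141 ± 39.6 CPM (SD, n = 3 each). Their adjusted p in edgeR lay between 0.381 and 0.827.

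Both PIP2 genes that lay higher in 9311 were followed through every processing choice. PIP2;4 was called in 12 of 15 alternatives, and its log2 fold change lay between 1.35 and 1.77. PIP2;1 was called in 2 of 15, and its log2 fold change lay between 0.44 and 0.62. Neither changed direction. The share of all tested genes that was called also moved with these choices, to 11.2% with DESeq2, 6.59% with limma-voom and 2.08% with replicate numbers as blocks. It was 4.01%, 3.32% and 11.9% without HHZ replicates 1, 2 and 3. Without 9311 replicates 1, 2 and 3 it was 3.54%, 3.35% and 4.97%, and PIP2;4 stayed called in each of these fits. PIP2;4 was not called with the block or without HHZ replicate 1 or 2.

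**Figure D5:**
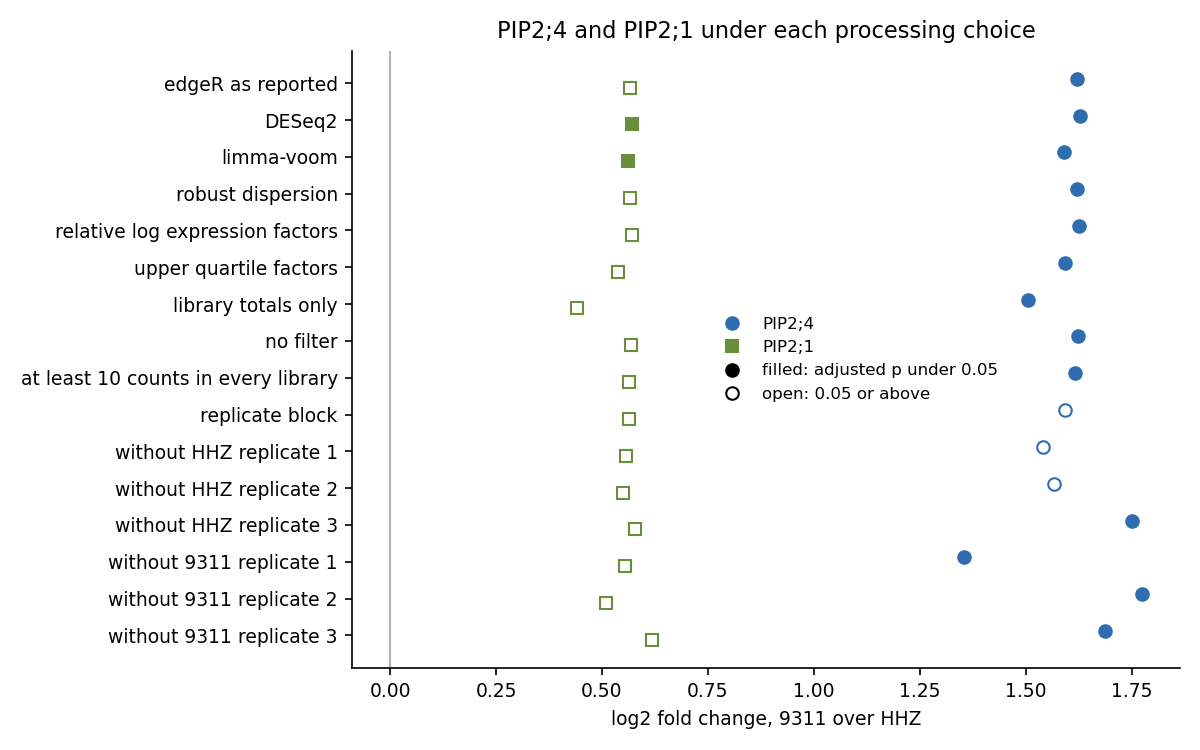
Log2 fold change (9311 over HHZ) of PIP2;4 (circles) and PIP2;1 (squares) in the fit as reported and in each alternative, filled where the adjusted p is under 0.05 and open where it is not. The circles stay between 1.35 and 1.77 and are open in 3 alternatives, and the squares stay between 0.44 and 0.62 and are filled in 2.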

How the data were processed

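RNA was sequenced from roots of 9311 and HHZ, 3 libraries each. The authors trimmed adaptors, aligned the paired reads with STAR (release 2.5.3a in the submitters' processing notes, another release in the paper's methods) to IRGSP-1.0 with the Ensembl Plants annotation, and deposited the raw read counts of each gene, neither normalized nor pooled. The strand setting and annotation release are not given in the sources used here. From these counts, 22554 genes passed edgeR's filterByExpr (minimum count 10) and were tested with edgeR 4.0.16 (R 4.3.3, TMM factors, quasi-likelihood test, Benjamini-Hochberg adjustment over all genes tested, threshold 0.05, cultivar as the only term). Standard errors are the size of the log2 fold change over the square root of F, and 95% intervals use the total degrees of freedom of that test. They include the spread between libraries, while the limits given for counts of 0 cover counting error only. The fit was tested on simulated counts with the same dispersion for all genes and no library that stood apart, so that test does not cover HHZ replicate 3. Subfamily sums were compared by exact permutation over libraries. The comparison was repeated with each library left out, with replicate blocks, with other scalings, filters and robust dispersion, with limma-voom (limma 3.58.1) and with DESeq2 1.42.0. All 10 PIP genes are named. Of the other aquaporin list, the rule was to name those called in the fit as reported or among the 3 with the highest mean CPM. Os05g0231700, called with DESeq2 only, was named outside this rule. The members and lists were chosen with earlier results of these data known. Names of the PIP genes came with their identifiers. All 10 names were found in RefSeq (ASM3414082v1) on the chromosome given by the identifier, but 0 of the identifiers. Sequences and coding lengths were not used here.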

Additional observations from a re-analysis of the deposited data

How the results depend on the processing

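Of 120 comparisons of a tested PIP gene with an alternative, 113 kept both the direction and the call. PIP2;4 was no longer called in 3 and PIP2;1 became called in 2 (DESeq2 and limma-voom). PIP2;2, never called, changed sign in 2, to -0.0077 with library totals only and to -0.058 without HHZ replicate 2 (-0.058 to 0.21 over the fits that left out a library). The number of PIP genes called was 1, against 2 with DESeq2, 2 with limma-voom and 0 to 1 when a library was left out. The share of all genes tested that was called was 6.51% in the fit as reported, 11.2% with DESeq2 and 6.59% with limma-voom. It was 3.32% to 11.9% when a library was left out, so the number of PIP genes called cannot be read apart from the setting. The cause was not tested. Of the 17 tested genes of the other aquaporin list, DESeq2 called 1 (11.2% of all genes tested with DESeq2) and the other alternatives 0. The number of genes called over the whole table was 1468. DESeq2 gave 2885, and leaving out a library gave 761 to 2724, the highest without HHZ replicate 3. The filter that required 10 counts in each library gave 563 of 20127 genes tested. This share was 2.8%, against 6.51% of 22554 in the fit as reported.

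Libraries with the same replicate number deviated from their group means with correlations of -0.117, 0.0846 and -0.126 over genes. With means of 3 libraries a group, these values cannot settle whether the replicate numbers pair the libraries. With the replicate block, 470 genes and 0 PIP genes were called, and PIP2;4 had a log2 fold change of 1.59 (adjusted p = 0.0672 in edgeR).

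When a library was left out, the difference in summed CPM ranged from 159 to 689 for PIP1 and from 791 to 949 for PIP2, and the difference in PIP1 share from -9.10 to -4.60 percentage points. Under the other scalings these sums kept their direction. Values per coding length were not run, because no coding lengths were used. The call of PIP2;4 rests on 3 libraries a group.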

Other observations

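Ratios of raw counts between 2 PIP genes of the same library do not depend on the scaling of the libraries, and 2 such ratios were computed after the data were seen. The ratio of PIP2;4 to PIP2;1 was 0.145, 0.153 and 0.186 in HHZ and 0.445, 0.241 and 0.328 in 9311. Every 9311 library thus had more PIP2;4 reads for each PIP2;1 read than any HHZ library. The ratio of PIP1;3 to PIP1;1 was 2.20, 1.82 and 2.84 in HHZ and 4.88, 4.11 and 3.14 in 9311, again without overlap. Both pairs were picked with the differences of the single genes known. The separation therefore adds no support beyond those genes, and no p-value is given for it. Ratios of other pairs were not computed, so the share of pairs that separate is not known.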
